A study of Mus musculus with 6 samples.

Results

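The MHC class II genes and their transactivator Ciita were followed in sorted mouse bone marrow LSK cells after haloperidol. The set holds 10 genes chosen by name and function from the 38926 genes of the deposited expression table. They are the peptide-binding chains H2-Aa, H2-Ab1 and H2-Eb1, the invariant chain Cd74, the peptide-loading chains H2-DMa, H2-DMb1 and H2-DMb2, the loading inhibitor chains H2-Oa and H2-Ob, and Ciita. All 10 were listed in the table, and 9 had a mean of at least 1 FPKM (fragments scaled to gene length and library depth) over the libraries and were tested. Ciita lay below that level.

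LSK cells are the lineage-negative, Sca-1-positive, Kit-positive marrow fraction that contains haematopoietic stem cells and multipotent progenitors. C57BL/6 mice aged 8 to 12 weeks, carrying no modified allele in the labels, received injections of haloperidol, an antipsychotic that blocks dopamine receptors, or of its vehicle DMSO on 3 days in a row. Femur and tibia were crushed and treated with collagenase IV, and the agent stayed with the cells while they were sorted. Each group had 3 RNA-seq libraries with 8523556 to 8969024 gene-assigned reads, recovered here from the step size of the FPKM values. Nothing in the labels says whether a library came from 1 mouse, pooled mice or a repeat preparation, nor whether the groups were sorted on the same day. The p-values therefore measure the spread between these libraries, which may be technical, and if each group had its own sorting day, day and drug cannot be told apart. The genes of the gate overlapped between the groups and did not pass the test, with Kit at 87.8 ± 7.38 and 81.0 ± 9.78 FPKM, Ly6a (Sca-1) at 136 ± 10.2 and 138 ± 10.5 FPKM, and the pan-leukocyte gene Ptprc at 42.5 ± 2.75 and 42.3 ± 2.58 FPKM (DMSO and haloperidol, mean ± SD, n = 3 each).

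Class II molecules are heterodimers of an alpha and a beta chain that present peptides from endosomes to CD4 T cells. The invariant chain fills the groove of new dimers and carries them to endosomes, H2-DM then removes its last fragment and helps peptides bind, and H2-O restrains H2-DM. The genes share a promoter module, the X box bound by the RFX complex and CREB and the Y box bound by NF-Y, on which the protein CIITA docks as a coactivator. Class II is best known from B cells, dendritic cells and macrophages.

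With haloperidol the peptide-binding chains, the invariant chain and both H2-O chains were lower, while none of the H2-DM chains passed the test. Of the 9 members tested, 6 fell, 0 rose and 3 did not pass at a Benjamini-Hochberg adjusted p of 0.05 (limma on log2(FPKM + 1), two-sided). Among all 11436 genes tested, 13% were called lower and 11.5% higher. Every haloperidol library lay below every DMSO library for the same 6 members and for 22.1% of all genes tested. The median log2 fold change was -0.51 over the 9 members and 0.00 over all genes tested. In bulk libraries, fewer cells with a transcript and less transcript per cell cannot be told apart.

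**Figure D1:**
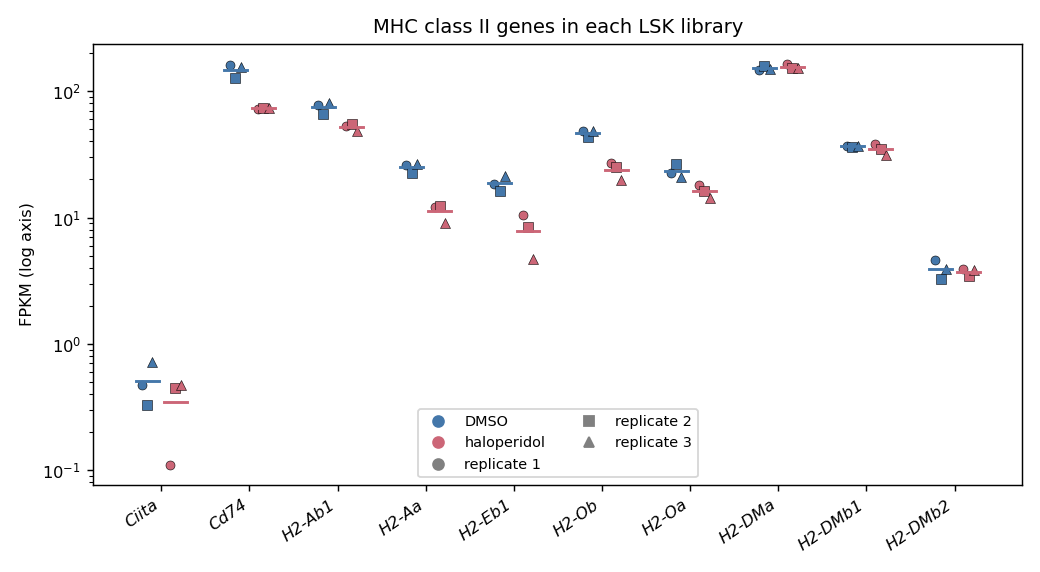
FPKM (log axis) of the 10 class II genes in each library, with DMSO in blue and haloperidol in red, one marker shape per replicate number and a bar at the group mean. The groups are apart for Cd74, H2-Ab1, H2-Aa, H2-Eb1, H2-Ob and H2-Oa and overlap for Ciita and the 3 H2-DM genes.

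Among the peptide-binding chains, H2-Aa and H2-Eb1 changed most. H2-Aa encodes the alpha chain of I-A, the classical class II molecule of this strain, and was at 26.2, 22.5 and 26.6 FPKM in DMSO replicates 1, 2 and 3 and at 12.1, 12.4 and 9.11 FPKM in haloperidol replicates 1, 2 and 3. Every haloperidol library lay below every DMSO library, with a log2 fold change of -1.10 (SE 0.12, limma adjusted p = 4.80e-04). These values rested on 367 to 449 reads per DMSO library and 152 to 207 reads per haloperidol library.

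H2-Ab1, the beta chain of I-A, was at 78.2, 65.8 and 80.7 FPKM in the DMSO libraries and at 52.9, 54.9 and 48.6 FPKM in the haloperidol libraries. The groups did not overlap here either, but the mean was 30.4% lower with haloperidol, against 55.4% lower for H2-Aa. The log2 fold change of H2-Ab1 was -0.51 (SE 0.08, limma adjusted p = 0.00352).

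H2-Eb1 encodes the beta chain of I-E. C57BL/6 mice carry a deletion in the gene of its alpha partner and show no I-E on the cell surface. The partner's row, H2-Ea-ps, had 0 reads in all 6 libraries. By counting error alone, a count of 0 still allows up to 0.334 to 0.352 RPM (reads per library size), depending on the library. H2-Eb1 was nevertheless transcribed, at 18.4, 16.2 and 21.2 FPKM in the DMSO libraries and at 10.5, 8.40 and 4.67 FPKM in the haloperidol libraries. The haloperidol libraries were again all lower but spread widely, from 106 reads in replicate 1 to 49 reads in replicate 3. Its log2 fold change of -1.20 (SE 0.23, limma adjusted p = 0.00668) ranked 45 of 11436 from the lowest, and those of H2-Aa and Cd74 ranked 61 and 94.

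Cd74, the invariant chain, was the most abundant of the members that fell. It was at 163, 126 and 155 FPKM in the DMSO libraries and at 71.9, 73.9 and 73.1 FPKM in the haloperidol libraries. The SD over the haloperidol libraries was only 1.04 FPKM, while DMSO replicate 2 stood below the other two DMSO libraries. The log2 fold change was -1.001 (SE 0.09, limma adjusted p = 2.09e-04).

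The inhibitor chains fell as well. H2-Ob, the beta chain of H2-O, was at 48.6, 43.5 and 48.6 FPKM in the DMSO libraries and at 26.8, 25.2 and 19.9 FPKM in the haloperidol libraries, with a log2 fold change of -0.95 (SE 0.10, limma adjusted p = 5.79e-04). H2-Oa, the alpha chain, was at 22.7, 26.7 and 20.9 FPKM and at 18.2, 16.2 and 14.4 FPKM in the same order, with a log2 fold change of -0.50 (SE 0.11, limma adjusted p = 0.0113). Neither gene's groups overlapped, although the gap between the lowest DMSO library and the highest haloperidol library was small for H2-Oa. An antisense gene, BC051537, lies across the whole of H2-Oa, and 15.5% of the 50-base stretches of H2-Oa transcripts also occur in its transcripts. The library kit keeps no strand, so reads from those stretches cannot be told apart. In all, 45 and 37 reads were assigned to BC051537 in DMSO and haloperidol.

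The peptide-loading chains did not follow. H2-DMa, the alpha chain of H2-DM, was at 147, 157 and 150 FPKM in the DMSO libraries and at 164, 153 and 152 FPKM in the haloperidol libraries, with overlapping groups. Its log2 fold change was 0.05 with a 95% interval from -0.07 to 0.16 (limma adjusted p = 0.553), whose lower bound lies above the changes of H2-Ab1 and H2-Oa. The estimate rested on 2151 to 2317 reads per library.

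The H2-DM beta chain has a pair of neighbouring genes. H2-DMb1 was at 36.7, 36.2 and 37.1 FPKM in DMSO and at 38.5, 34.7 and 31.3 FPKM in haloperidol, a log2 fold change of -0.08 with a 95% interval from -0.25 to 0.09 (limma adjusted p = 0.474). H2-DMb2 was far lower, at 4.59, 3.23 and 3.89 FPKM and at 3.94, 3.42 and 3.81 FPKM, a log2 fold change of -0.05 with an interval from -0.32 to 0.22 (limma adjusted p = 0.808). Both genes overlapped between groups, and H2-DMb2 rested on only 24 to 35 reads per library. Of the 50-base stretches of H2-DMb1 transcripts, 22.7% also occur in H2-DMb2 transcripts, so the split of reads between the pair is uncertain. Their summed level was 40.6 ± 1.001 FPKM in DMSO and 38.5 ± 3.67 FPKM in haloperidol.

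**Figure D2:**
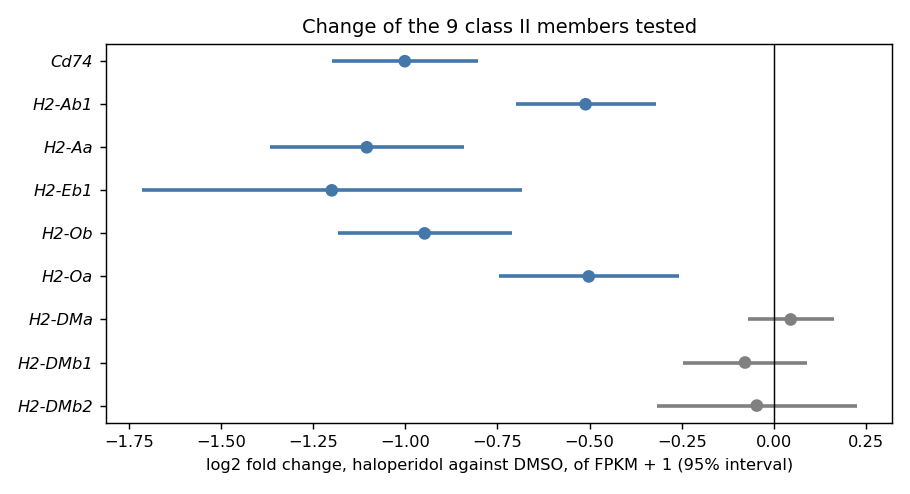
Log2 fold change (haloperidol against DMSO, of FPKM + 1) with its 95% interval from limma for the 9 members tested, blue where the adjusted p was below 0.05 and grey where it was not. The intervals of the 6 blue genes lie below 0, and those of the 3 H2-DM genes include 0.

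Ciita, the transactivator, was at the edge of detection. It was at 0.470, 0.329 and 0.718 FPKM in the DMSO libraries, from 22, 15 and 34 reads, and at 0.111, 0.450 and 0.470 FPKM in the haloperidol libraries, from 5, 21 and 22 reads. The groups overlapped, with haloperidol replicate 1 the lowest library and DMSO replicate 3 the highest. An exact two-sided permutation test of log2(FPKM + 1) gave p = 0.5, where 0.1 is the smallest value that 3 against 3 libraries can give. With no filter on low values the log2 fold change was -0.17 (SE 0.15, limma adjusted p = 0.541), and a change of Ciita was not detectable at this depth. The gene Dexi overlaps Ciita by 25888 bases on the other strand, and 1.46% of the 50-base stretches of Ciita transcripts also occur in Dexi transcripts. Dexi had 922 reads over the DMSO libraries and 812 over the haloperidol libraries. As the kit keeps no strand, reads from the shared stretches cannot be told apart.

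Levels per length placed the genes in nearly the same order in both groups, with H2-Ob and H2-DMb1, and H2-Aa and H2-Oa, in exchanged places. In DMSO the order ran H2-DMa (151 FPKM), Cd74 (148), H2-Ab1 (74.9), H2-Ob (46.9), H2-DMb1 (36.7), H2-Aa (25.1), H2-Oa (23.5), H2-Eb1 (18.6), H2-DMb2 (3.90) and Ciita (0.505). The libraries of neighbours overlapped for H2-DMa and Cd74, for H2-Aa and H2-Oa, and for H2-Oa and H2-Eb1, and were apart for the other neighbours. In haloperidol the order ran H2-DMa (156 FPKM), Cd74 (73.0), H2-Ab1 (52.1), H2-DMb1 (34.8), H2-Ob (24.0), H2-Oa (16.3), H2-Aa (11.2), H2-Eb1 (7.84), H2-DMb2 (3.72) and Ciita (0.343). There H2-Aa and H2-Eb1 were the only neighbours whose libraries overlapped. H2-DMa thus stood level with Cd74 in DMSO and apart from it in haloperidol.

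Ratios of FPKM within a library do not depend on how libraries were scaled. The ratio of H2-DMa to H2-Aa was 5.61, 6.97 and 5.64 in the DMSO libraries and 13.6, 12.3 and 16.7 in the haloperidol libraries. The loading chain went from 6.07 ± 0.776 to 14.2 ± 2.25 times the level of the I-A alpha chain, with no overlap between groups (exact two-sided permutation p = 0.1, the smallest this design allows, 0.3 adjusted over 6 ratios). H2-Ab1 to H2-Aa, the beta to alpha chain ratio of I-A, went from 2.98 ± 0.0614 to 4.71 ± 0.541 (the same exact p values). The groups did not overlap and the observed means of the partner chains fell by unequal factors. With 3 against 3 libraries the exact permutation test cannot give a p below 0.1, so it cannot decide this. The ratio of Cd74 to H2-Aa overlapped at 5.88 ± 0.306 and 6.64 ± 1.20 (exact permutation p = 0.4), as did H2-Eb1 to H2-Aa at 0.739 ± 0.0510 and 0.685 ± 0.176 (exact permutation p = 0.7). H2-DMa to the sum of H2-DMb1 and H2-DMb2 was 3.73 ± 0.223 and 4.07 ± 0.234 (exact permutation p = 0.2), and Ciita to H2-Aa at 0.0198 ± 0.00643 and 0.0323 ± 0.0215 (exact permutation p = 0.7).

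Another 4 ratios were chosen after the values were seen and are given without a test. H2-DMa to H2-Ob went from 3.24 ± 0.324 to 6.60 ± 0.881, and H2-DMa to H2-Oa from 6.51 ± 0.643 to 9.68 ± 0.812. The H2-DM alpha chain therefore stood higher against both of its inhibitor's chains in all 3 haloperidol libraries than in any DMSO library. H2-Ob to H2-Oa went from 2.03 ± 0.361 to 1.47 ± 0.0849, and Cd74 to H2-Ab1 from 1.97 ± 0.0933 to 1.404 ± 0.0882.

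**Figure D3:**
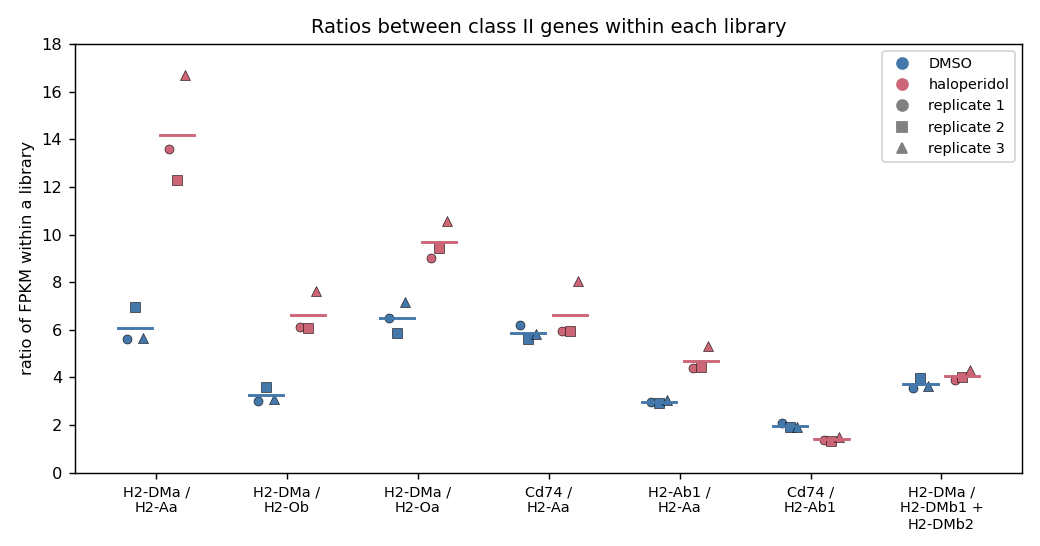
Ratio of FPKM between class II genes within each library, DMSO in blue and haloperidol in red, with a bar at the group mean. The haloperidol libraries lie above the DMSO libraries for H2-DMa over H2-Aa, H2-Ob or H2-Oa and for H2-Ab1 over H2-Aa, below them for Cd74 over H2-Ab1, and overlap them for Cd74 over H2-Aa and for H2-DMa over its beta chains.

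Within a group the members tended to share their low library. DMSO replicate 2 was the lowest DMSO library for 8 of the 10 members, the exceptions being H2-DMa and H2-Oa, for which it was the highest. Haloperidol replicate 3 was the lowest haloperidol library for 7 members, among them H2-Aa, H2-Ab1, H2-Eb1, H2-Oa and H2-Ob, while Cd74 was nearly level over the 3 haloperidol libraries. No call depended on either library, as the 6 genes fell and the 3 H2-DM genes did not pass whichever single library was left out.

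Sequence just before the transcription start was available for 7 members, in 8 windows of 250 bases before to 50 bases after a RefSeq start (GRCm38.p6, the assembly also called mm10). The stretches below run from 130 to 31 bases before the start and are shown because the X and Y box module is the feature the family shares. Capitals mark TGATTGG, the core of the Y box, and, where GNAAC stands 20 to 40 bases upstream of it on the same strand, those letters of the X box. These letters were chosen after the windows had been read.
H2-Aa (chr17:34287854-34287953, minus strand): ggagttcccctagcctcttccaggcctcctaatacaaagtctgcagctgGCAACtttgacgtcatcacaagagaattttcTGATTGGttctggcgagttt
H2-Eb1 (chr17:34305737-34305836, plus strand): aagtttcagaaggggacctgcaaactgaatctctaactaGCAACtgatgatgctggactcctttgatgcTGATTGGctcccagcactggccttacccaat
H2-Ob (chr17:34238775-34238874, plus strand): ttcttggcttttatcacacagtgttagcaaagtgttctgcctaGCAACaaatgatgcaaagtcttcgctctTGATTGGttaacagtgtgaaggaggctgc
H2-Oa (chr17:34092249-34092348, plus strand): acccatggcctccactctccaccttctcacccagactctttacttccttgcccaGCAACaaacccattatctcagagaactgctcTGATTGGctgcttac
H2-DMb1 (chr17:34153061-34153160, plus strand): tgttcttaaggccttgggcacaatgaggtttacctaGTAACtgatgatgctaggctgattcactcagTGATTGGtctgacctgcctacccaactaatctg
H2-DMb2 (chr17:34145119-34145218, plus strand): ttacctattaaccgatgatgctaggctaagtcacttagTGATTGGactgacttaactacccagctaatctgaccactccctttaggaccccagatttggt

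TGATTGG was found in 6 of the 8 windows, beginning 45 to 92 bases before the start, and in 7.82% of all 32851 windows on either strand. GNAAC followed by TGATTGG was found in 5 of the 8 windows, with 23 to 26 bases between the letters, and in 0.572% of all windows. The H2-DMb2 stretch has TTAAC upstream of its TGATTGG, where H2-DMb1 has GTAAC, and so did not match. Its lack of a match does not show that an X box is absent. The letters were GCAAC in H2-Aa, H2-Eb1, H2-Ob and H2-Oa and GTAAC in H2-DMb1. Whether these letters go with the change of a gene was not tested. GCAAC followed by TGATTGG was thus found in 4 of the 8 windows, and in 0.195% of all windows. No window was available for H2-Ab1, Cd74 or Ciita. The 2 windows of H2-DMa (chr17:34122582-34122881 and chr17:34125268-34125567) held no TGATTGG. Both lie inside the gene as GENCODE M21 draws it, downstream of its start there, and the first reaches into Brd2, so the sequence before the GENCODE start was not read. The H2-DMb2 window (chr17:34144999-34145298) likewise lies inside its GENCODE gene, which starts at 34143307, so the sequence before that start was not read. Most of the printed H2-DMb1 stretch lies past its GENCODE start at 34153072. The H2-Oa stretch ends just past its GENCODE start at 34092340. These matches describe letters and do not show that a factor binds there.

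The genes that fell lay at both ends of the class II stretch. By GENCODE M21 on GRCm38, 8 members lie in a 224.3 kb stretch of chromosome 17 from H2-Oa (34092340 to 34095234) to H2-Eb1 (34305867 to 34316674), Ciita on chromosome 16 (10480059 to 10528418) and Cd74 on chromosome 18. H2-DMa (34119541 to 34139101), H2-DMb2 (34143307 to 34151555) and H2-DMb1 (34153072 to 34160230) follow H2-Oa, and H2-Ob (34238903 to 34254414), H2-Ab1 (34257689 to 34269419) and H2-Aa (34282744 to 34287823, the only member of the stretch on the minus strand) precede H2-Eb1. Beside 11.5% of all genes tested called higher and 13% called lower, 2 of the 5 other protein-coding genes of the stretch rose and 0 fell. They were the immunoproteasome gene Psmb8, from 224 ± 4.37 to 261 ± 19.5 FPKM (limma adjusted p = 0.0305), and the peptide transporter gene Tap2, from 112 ± 1.72 to 125 ± 2.55 FPKM (limma adjusted p = 0.0315). Psmb9 (52.8 and 52.0 FPKM), Tap1 (45.0 and 48.8 FPKM) and the bromodomain gene Brd2 (32.3 and 36.7 FPKM in DMSO and haloperidol) did not pass. Brd2 overlaps H2-DMa by 3094 bases on the other strand and holds 8.43% of the 50-base stretches of H2-DMa transcripts, while among the members that fell H2-Oa shares 15.5%, as given above, H2-Aa shares 0.514% and Cd74, H2-Ab1, H2-Eb1 and H2-Ob share none with another gene.

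**Figure D4:**
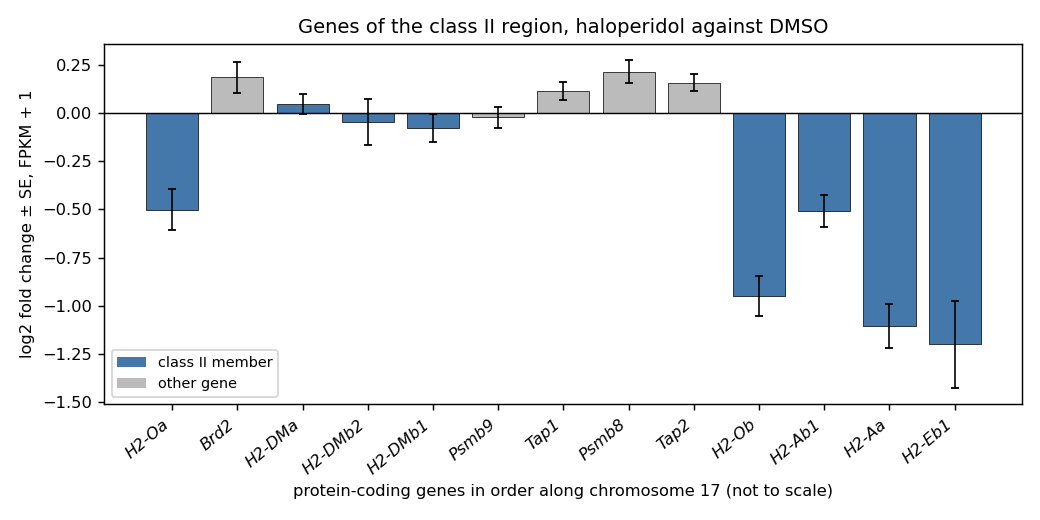
Log2 fold change (haloperidol against DMSO, of FPKM + 1) ± SE for the 13 protein-coding genes of the class II stretch in their order along chromosome 17, members in blue and other genes in grey. H2-Oa at the left and H2-Ob, H2-Ab1, H2-Aa and H2-Eb1 at the right are lower, and the H2-DM, proteasome and transporter genes between them are not.

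Class I genes, the other branch of antigen presentation, were read beside them. Of 20 tested, 6 rose, 1 fell and 13 did not pass, with a median log2 fold change of 0.07. Among all genes tested, 11.5% were called higher and 13% lower, and the counts of the lists below stand beside the same shares. The light chain gene B2m was at 3078 ± 106 and 2969 ± 158 FPKM (limma adjusted p = 0.538). The aminopeptidase gene Erap1 rose from 30.1 ± 1.39 to 37.1 ± 1.07 FPKM and the chaperone gene Calr from 299 ± 6.25 to 348 ± 11.1 FPKM, while the class I heavy chain gene H2-Q6, which has close relatives that can share its reads, fell from 136 ± 8.41 to 112 ± 5.72 FPKM (limma adjusted p at most 0.0134 for these 3 genes).

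Among 16 tested genes of the class II enhanceosome and its inputs, 6 fell, 1 rose and 9 did not pass, with a median log2 fold change of -0.15. The transcription factor genes Irf8 and Spi1 act on the myeloid promoter of Ciita. Irf8 was at 13.2, 13.1 and 12.7 FPKM in DMSO and at 7.79, 5.98 and 6.91 FPKM in haloperidol, with groups apart and a log2 fold change of -0.84 (SE 0.09, limma adjusted p = 5.54e-04). Spi1 fell by 0.49 on the log2 scale (SE 0.06, limma adjusted p = 0.0011). Irf1, a transcription factor of the interferon gamma response that acts on Ciita, fell from 112 ± 0.935 to 91.9 ± 4.47 FPKM. Ifngr1, the ligand-binding chain of the interferon gamma receptor, rose from 147 ± 15.6 to 201 ± 16.4 FPKM (limma adjusted p = 0.0066). Of the 7 genes whose products bind the X and Y boxes (Rfx5, Rfxank, Rfxap, Nfya, Nfyb, Nfyc and Creb1), 1 fell and 6 did not pass. It was Rfxank, named after its value was seen, which went from 7.15 ± 0.678 to 5.09 ± 0.451 FPKM (limma adjusted p = 0.0148).

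Of 13 tested genes of endosomal processing and class II turnover, 2 fell, 3 rose and 8 did not pass, with a median log2 fold change of -0.12. The share that fell was near the 13% of all genes tested called lower. Cd83, whose product in mouse dendritic cells keeps class II at the surface by opposing March-type ubiquitin ligases, was at 588, 555 and 544 FPKM in DMSO and at 111, 119 and 158 FPKM in haloperidol. Its groups were far apart, with a log2 fold change of -2.13 (SE 0.12, limma adjusted p = 3.21e-05). The ligase gene March1 had only 7 reads over the DMSO libraries and 1 over the haloperidol libraries. The 3 that rose were Ifi30, the thiol reductase of endosomes, from 4.22 ± 0.185 to 6.45 ± 0.683 FPKM, and the cathepsin genes Ctsz, from 107 ± 2.86 to 125 ± 4.22 FPKM, and Ctss, whose product cleaves the invariant chain, from 38.2 ± 1.77 to 46.9 ± 4.78 FPKM (limma adjusted p at most 0.0281).

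Of 8 tested costimulation genes and Cd74 partners, 3 fell, 3 rose and 2 did not pass. Cd86, a costimulatory ligand, fell from 5.58 ± 0.122 to 3.37 ± 0.413 FPKM, and the adhesion ligand Icam1 fell by 0.81 on the log2 scale (SE 0.08, limma adjusted p = 4.05e-04). CD74 at the cell surface is also the receptor of the cytokine MIF. Mif was at 524, 505 and 525 FPKM in DMSO and at 731, 753 and 737 FPKM in haloperidol, all higher, with a log2 fold change of 0.51 (SE 0.04, limma adjusted p = 1.79e-04). Cd44, the signalling partner of CD74, fell from 33.4 ± 1.07 to 26.1 ± 0.982 FPKM (limma adjusted p = 0.00324). The other co-receptor genes of the list, named after their values were seen, rose. Cxcr4 went from 32.8 ± 3.83 to 43.5 ± 1.87 FPKM (limma adjusted p = 0.0105), and Cxcr2 rose by 0.50 on the log2 scale (SE 0.12, limma adjusted p = 0.021).

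Markers of the cells best known for class II moved in part with these genes, and their part in the result was not tested. Of 7 B lineage markers tested, 7 fell, with a median log2 fold change of -0.99, beside 13% of all genes tested that were called lower. Blnk and, singled out after their values were seen, Cd79a, Vpreb1 and Vpreb3 had means below 1 FPKM in haloperidol. They reached the level tested only through their DMSO values, so the count and the median rest in part on such genes. The summed level of the 15 listed markers was 296 to 333 FPKM in the DMSO and 119 to 143 FPKM in the haloperidol libraries. Most of that sum was Ighm, at 262 ± 18.7 and 102 ± 12.3 FPKM, while Ly6d, an early B lineage marker, fell from 11.1 ± 1.23 to 2.20 ± 0.356 FPKM, Blnk from 1.62 ± 0.0934 to 0.506 ± 0.0867 FPKM and Cd79b from 32.2 ± 1.12 to 22.8 ± 1.24 FPKM. The mature B cell marker Ms4a1 and the B lineage factor Pax5 were near 0, with 6 and 2 reads of Ms4a1 and 1 and 0 of Pax5 over the 3 DMSO and the 3 haloperidol libraries.

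Of 6 dendritic cell markers tested, 3 fell, 1 rose and 2 did not pass, and the summed level of all 14 was 241 to 250 and 241 to 270 FPKM. Ccr9 fell from 3.62 ± 0.410 to 0.961 ± 0.367 FPKM, Tcf4 from 15.3 ± 1.02 to 11.1 ± 0.781 FPKM and Ccr7 from 1.82 ± 0.140 to 0.917 ± 0.192 FPKM. Flt3, which multipotent progenitors also express, rose from 104 ± 2.36 to 116 ± 5.21 FPKM, and Bst2, the most abundant, was at 116 FPKM in both groups. Ccr9 and Ccr7 were below 1 FPKM in haloperidol and reached the level tested only through their DMSO values. Of the defining markers, Clec9a had 3 and 5 reads, Xcr1 11 and 7 and Cd8a 0. Others below the level tested were singled out after their values were seen, Zbtb46 with 210 and 70 reads and Itgax with 62 and 115. Of 9 monocyte and macrophage markers tested, 2 fell, 1 rose and 6 did not pass, with summed levels of 491 to 543 and 407 to 447 FPKM over 14 listed. The lysozyme gene Lyz2 fell by 0.56 on the log2 scale (SE 0.07), Cd68 rose by 1.42 (SE 0.08), and Csf1r was at 5.09 ± 0.995 and 6.51 ± 1.39 FPKM. C1qc, a complement gene of macrophages, fell from 1.42 ± 0.288 to 0.687 ± 0.0931 FPKM and reached the level tested only through its DMSO values. The other C1q genes were singled out after their values were seen. C1qb overlapped at 1.93 ± 0.202 and 1.74 ± 0.305 FPKM (limma adjusted p = 0.599), and C1qa, not tested, had 31 and 17 reads.

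Of 7 T, natural killer and innate lymphoid markers tested, 3 fell and 4 did not pass, with summed levels of 326 to 347 and 282 to 330 FPKM over 14 listed, nearly all from Nkg7 (318 ± 11.4 and 296 ± 22.6 FPKM). Tcf7, which encodes a T lineage transcription factor, fell from 2.57 ± 0.423 to 0.963 ± 0.380 FPKM, Cd5 fell to 0.641 ± 0.0869 FPKM from 1.56 ± 0.257, and the cytokine receptor gene Il7r fell from 1.90 ± 0.608 to 0.618 ± 0.290 FPKM. All 3 that fell were below 1 FPKM in haloperidol and reached the level tested only through their DMSO values. Cd3e had 0 reads in DMSO. Of 6 endothelial markers tested, 3 fell and 3 did not pass, with summed levels of 57.9 to 62.7 and 46.9 to 49.8 FPKM over 9 listed. Tie1 fell from 14.6 ± 1.07 to 10.1 ± 0.786 FPKM, Eng from 21.6 ± 1.46 to 16.1 ± 0.969 FPKM and Emcn from 4.92 ± 0.06 to 3.83 ± 0.276 FPKM, Plvap was at 3.35 ± 0.669 and 2.82 ± 0.225 FPKM, and Cdh5 had 0 and 3 reads.

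The genes whose profile was most like the members were found by correlation with the mean of the 9 members' standardized log2(FPKM + 1). That mean gave each of the 3 H2-DM genes, which did not pass, the same weight as each of the 6 genes that fell. Over the 6 libraries, Pearson's r was highest for Dock8 (0.998), Sh3tc1 (0.994), Plin3 (0.994), Fam65b (0.994) and Baz2a (0.992). All 5 had their lowest value in haloperidol replicate 3. Their log2 fold changes ran from -0.24 for Baz2a, which did not pass (limma adjusted p = 0.0899), to -0.52 for Sh3tc1, which did (limma adjusted p = 0.0292). The points are 6 libraries in 2 groups, so r mostly describes the group difference.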

How the data were processed

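The authors deposited FPKM values in 1 table that has a column for each library and no other. Per the submitters' processing notes, DESeq2 1.18.1, HTSeq 0.6.1, TopHat2 2.1.1 and bcl2fastq 2.19.1.403 were used with the mm10 build. The annotation release and the read-counting settings were not given in the sources used here. Per the labels' protocols, cDNA was made with a SMART-Seq v4 kit and libraries with a Nextera XT kit, which keep no strand.

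Whole reads were recovered from the steps between FPKM values, for 100% of the genes above 0 (within 0.001 reads), and the libraries' scale matched median-of-ratios size factors. Recovered reads gave depth and 1 alternative. Chi-square per degree of freedom was 3.06 to 5.06 between libraries of a group, so none agreed within sampling noise.

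Genes with a mean of at least 1 FPKM were compared between groups by limma 3.58.1 (R 4.3.3) on the scale log2(FPKM + 1) (trend in the prior variance, no covariate, Benjamini-Hochberg over 11436 genes, threshold 0.05). Fold changes on that scale understate the change of low genes. Ratios were compared by exact permutation in scipy 1.17.1. Same-numbered libraries did not deviate together (r 0.009, 0.055 and 0.02), so no pairing was used.

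The members and lists were chosen with earlier results of these data known. All members are named. Of each list, the 4 members with the smallest p and the most abundant one were named, with others marked as singled out afterwards or given as near-absent markers; values of some listed genes are not reported here. Of the class I list, Psmb8 was also named by position. Promoter sequences are RefSeq's.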

Additional observations from a re-analysis of the deposited data

How the results depend on the processing

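The 6 members that fell and the 3 H2-DM genes that did not pass kept their calls under all settings in which they were tested. These were pseudocounts of 0.1 and 0.5, no filter or a filter at 5 FPKM, upper quartile and common sum scaling, a robust prior variance, H2-DMb1 and H2-DMb2 summed, limma voom on recovered reads (chosen after seeing the data) and leaving out each library. The largest limma adjusted p was 0.0452 for H2-Oa and 0.0392 for H2-Eb1, and the smallest for an H2-DM gene was 0.158. Without 1 library the log2 fold change ran from -1.42 to -0.91 for H2-Eb1, from -0.58 to -0.41 for H2-Oa and from -1.11 to -0.93 for Cd74. H2-DMb2, at 24 to 35 reads, ran from -0.15 to 0.053 and changed sign without DMSO replicate 1 (0.053) and without haloperidol replicate 2 (0.0006). The numbers called without 1 library ran from 1814 (without DMSO replicate 2) to 2160, against 2807 genes in all. The log2 differences of 2 ratios to H2-Aa turned without haloperidol replicate 3, that of H2-Eb1 from -0.14 to 0.051 and that of Ciita from 0.43 to -0.076, and the cause was not tested. Leaving out each library gave -0.33 to 0.051 for the first and -0.076 to 1.17 for the second.

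With the replicate number as a block, 2552 genes were called and the same 6 members fell. The planned count test by quasi-likelihood was not run, and limma voom on the recovered reads took its place. Depth limits Ciita, which had 71 reads over the DMSO libraries and 48 over the haloperidol libraries, and no interval given covers more than the spread of these libraries.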
